A study of Zea mays with 12 samples.

Results

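Genes of the cytoskeleton were followed through the first hours of imbibition in maize seeds. A gene was taken when its deposited description or name held a word for actin, formin, profilin, villin, tubulin, kinesin, myosin or a microtubule-associated protein, which found 414 of the 55529 genes measured. Of these, 30 matched only through other uses of the words ("acting", "-forming" in enzyme names, or actin-dependent chromatin regulators) and were set aside, which left 384 genes of 18 classes. Whole seeds were sequenced by RNA-seq from *ereb92-6*, a CRISPR/Cas9 mutant of *ZmEREB92* in the KN5585 background, and from the wild type KN5585. Seeds of both genotypes were sampled at 6 and 0 hours after imbibition (HAI). The paper's germination assay used surface-sterilized seeds on filter paper with water in the dark. Its RNA-seq methods do not state how the sequenced seeds were imbibed. The 4 groups, *ereb92*_6h, *ereb92*_0h, KN5585_6h and KN5585_0h, had 3 biological replicates each, and the mutant was represented by 1 line.

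Actin filaments carry myosin motors and cytoplasmic streaming in plant cells, and cortical microtubules guide the deposition of cellulose and thereby the direction of cell growth. Formins start and elongate actin filaments, profilins bind actin monomers, actin-depolymerizing factors cut and disassemble filaments, and villins bundle them. Microtubules are built from alpha-tubulin and beta-tubulin, are started at gamma-tubulin complexes, are bundled by proteins of the MAP65 family and carry kinesin motors. Dry seeds hold stored transcripts, and the embryo resumes growth first by cell expansion after water uptake.

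The libraries held 12771663 to 15383586 counts on genes, and 3 counts, taken as the smallest abundance the depth can show, were 0.182 to 0.281 counts per 1e+06 (CPM). This limit covers counting error only. One library, KN5585_6h replicate 1, had counts on 23104 genes and on 236 of the 384 cytoskeleton genes, against 27689 to 32080 genes and 257 to 287 cytoskeleton genes in the other 11 libraries. *ZmEREB92* (Zm00001d000339) was counted 4146, 3115 and 895 times in *ereb92*_6h, against 205, 71 and 374 times in KN5585_6h. In dry seeds it was counted 126, 17 and 82 times in *ereb92*_0h, against 96, 25 and 27 times in KN5585_0h. Counts per gene do not show a Cas9 lesion, so they did not check the genotype labels. The paper reports that *ZmEREB92* is missing from the B73 RefGen_v4 assembly, to which these reads were aligned. Whether Zm00001d000339 matches that locus was not tested. Oleosins, of oil bodies in embryo and aleurone, were abundant in all libraries, with a summed level of 12280 to 59940 CPM. Genes listed as embryo globulins summed to 13310 to 76880 CPM. Counts in at least 1 library were found for 7 of 7 oleosins and 21 of 25 globulins. The 21 zeins, which mark endosperm, summed to 10.5 to 581 CPM. Transcripts of a cell type that is scarcer and transcripts that are fewer per cell cannot be told apart in whole seeds.

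The cytoskeleton genes took 0.516% to 0.765% of the counts of a library. Of the 384 genes, 199 had counts in all 12 libraries and 54 in none. Levels are compared between genes in the deposited FPKM, which divides counts by gene length. The most abundant genes with a defined cytoskeletal function were actin depolymerizing factor3 (Zm00001d034644), with a mean over the libraries of 148 FPKM, Actin-depolymerizing factor 10 (Zm00001d012966, 129 FPKM), alpha tubulin3 (Zm00001d013159, 99.1 FPKM) and the Actin-7 gene Zm00001d011087 (97.9 FPKM). FPKM were also summed over the genes of a class. The 28 actin genes summed to 292 to 315 FPKM in *ereb92*_6h, 317 to 359 FPKM in *ereb92*_0h, 260 to 347 FPKM in KN5585_6h and 286 to 310 FPKM in KN5585_0h. The 32 formin genes summed to 357 to 797 FPKM in *ereb92*_6h, 27.6 to 37.2 FPKM in *ereb92*_0h, 45.1 to 97.5 FPKM in KN5585_6h and 26.4 to 36.5 FPKM in KN5585_0h. The summed actin level thus overlapped between the genotypes at 6 HAI, while the summed formin level of each *ereb92*_6h library lay above the summed actin level of that group. That formin sum rested mostly on 4 genes (89.4% to 92.7% in *ereb92*_6h), which were taken as formins by their descriptions alone.

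**Figure D1:**
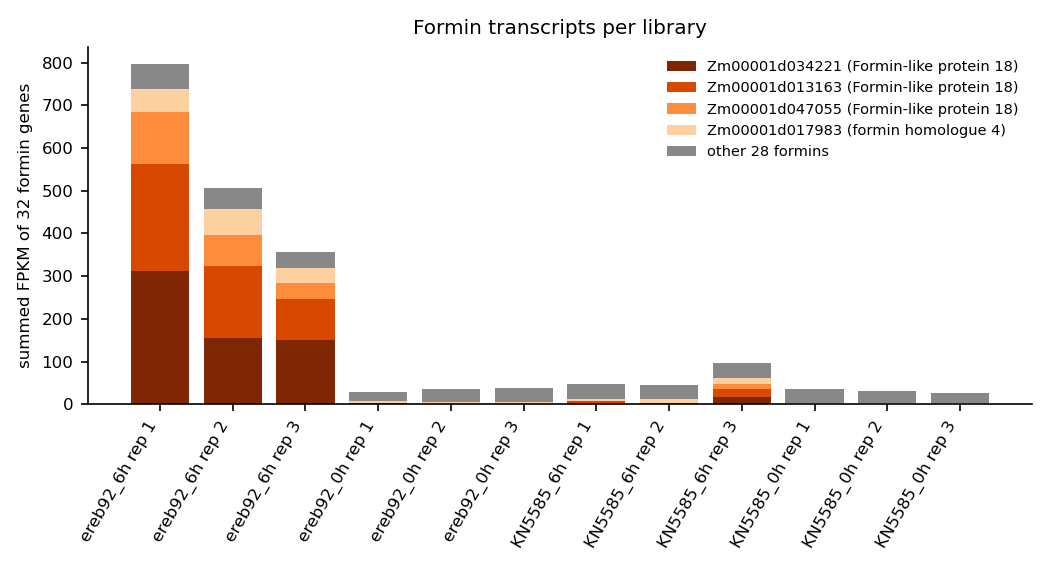
Summed FPKM of the 32 formin genes (vertical axis) in each of the 12 libraries (horizontal axis), with the 4 most abundant formins coloured and the other 28 in grey. The *ereb92*_6h libraries reach 797, 505 and 357 FPKM, the KN5585_6h libraries lie between 45.1 and 97.5 FPKM, and the dry-seed libraries of both genotypes lie under 40 FPKM.

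In *ereb92* seeds, 16 cytoskeleton genes rose in *ereb92*_6h vs *ereb92*_0h and 0 fell. Among the 16, 6 were formins, 5 were myosin heavy chain-related genes, 2 were MAP65 genes, 2 were other actin-binding genes and 1 was an actin gene. The quasi-likelihood test of edgeR was used, with p-values adjusted after Benjamini and Hochberg over all genes tested, and a call required both an adjusted p under 0.05 and a change of 2-fold or more. Of the 384 genes, 239 passed the filter on low counts, and the 16 called are 6.69% of them, against 5.87% of the 23575 genes tested in all. The share of genes that rose was thus near that of all genes. Some of the 16 could pass the filter on low counts only through *ereb92*_6h, so this share is a description. Among them were Zm00001d034221, Zm00001d013163, Zm00001d047055, Zm00001d032480, Zm00001d038174 and Zm00001d027994. For falling genes, the background was 0.106%. Without adjustment (p under 0.05, same fold limit), 20 cytoskeleton genes were higher and 2 lower, against 11% and 0.878% of all genes. DESeq2's Wald test called 18 higher and 2 lower. The median log2 fold change was -0.08 over the 239 genes and -0.02 over all genes. All 16 genes had each *ereb92*_6h library above each *ereb92*_0h library, and so did 13 genes that were not called. No overlap in that direction was found for 14.7% of all genes tested, and the opposite order was found for 20 cytoskeleton genes and for 10.1% of all genes. Without *ereb92*_0h replicate 3, the number that rose was 10, and without *ereb92*_6h replicate 3 the number that fell was 4. Among the 25 cytoskeleton genes with the highest mean FPKM, 23 had a fold change under 2. The others were a pair of formins, which reach that mean only through *ereb92*_6h.

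**Figure D2:**
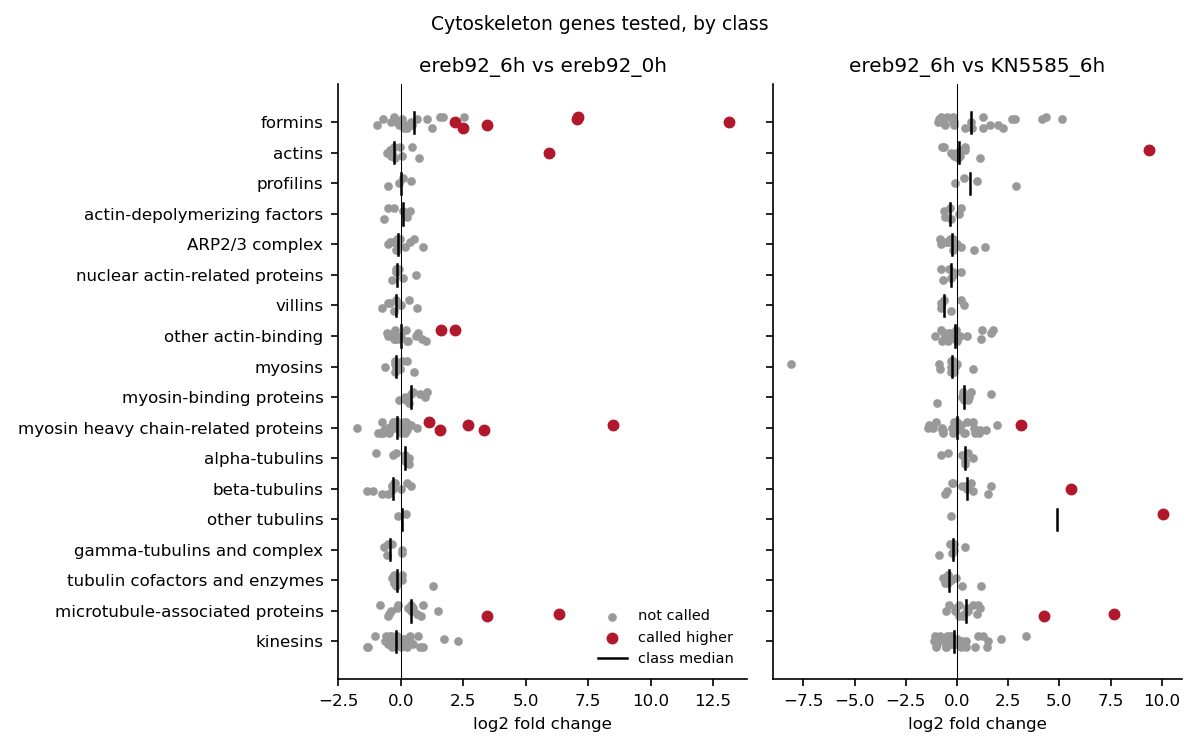
Log2 fold change (horizontal axis) of each cytoskeleton gene tested, by class (vertical axis), in *ereb92*_6h vs *ereb92*_0h (left) and *ereb92*_6h vs KN5585_6h (right), with called genes in red and the class median as a black line. The class medians on the left lie between -0.44 and 0.53, and the 16 (left) and 6 (right) called genes lie to the right; fitted values of genes with a group at 0 counts depend on the prior count.

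Formins were the class with most called genes. Of 32 formins, 24 were tested and 6 rose in *ereb92*_6h vs *ereb92*_0h (25%, against 5.87% of all genes tested). Zm00001d034221, Zm00001d013163 and Zm00001d047055 could pass the filter on low counts only through *ereb92*_6h, so this share is a description. The class median was 0.53 on the log2 scale, and 18 of the 24 had a positive log2 fold change. Without the 4 most abundant formins the median of the other 20 was 0.32. The gene with the largest change was Zm00001d034221, described as Formin-like protein 18. It had 5876, 3270 and 2867 counts in *ereb92*_6h, against 1, 0 and 0 counts in *ereb92*_0h. Its transcripts were thus close to undetected in dry *ereb92* seeds and averaged 205 ± 92.1 FPKM in *ereb92*_6h (SD, n = 3), the highest mean of a formin in that group. With 1 count in *ereb92*_0h, the ratio of CPM was 11940, with a 95% exact interval of 2143 to 471800 that covers counting error only (edgeR adjusted p = 0.000311).

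A pair of genes with the same description also rose. Zm00001d013163 had 4760, 3606 and 1836 counts in *ereb92*_6h, against 59, 4 and 17 in *ereb92*_0h, a log2 fold change of 7.07 (SE 0.797, edgeR adjusted p = 0.00185). Zm00001d047055 had 2288, 1558 and 730 counts in *ereb92*_6h, against 20, 4 and 11 in *ereb92*_0h, also a log2 fold change of 7.07 (SE 0.609, edgeR adjusted p = 0.000752). In both, the lowest *ereb92*_6h library was over 10 times the highest *ereb92*_0h library in counts. In FPKM they averaged 172 ± 77.8 and 77.0 ± 41.3 in *ereb92*_6h, against 1.23 ± 1.27 and 0.550 ± 0.337 in *ereb92*_0h (SD, n = 3).

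The gene models of these 3 formins stood apart from the other 29. In the B73 RefGen_v4 annotation of the deposited table, Zm00001d034221 lies on chromosome 1 from 287023471 to 287024778, Zm00001d013163 on chromosome 5 from 5642010 to 5643323, and Zm00001d047055 on chromosome 9 from 116811920 to 116813239. Their lengths of 1308, 1314 and 1320 bases equal the span from start to end, so that the models hold no intron. This held for 3 of 32 formins and for 16 of the 384 cytoskeleton genes, and the median length of a formin gene model was 3002 bases. Protein sequences were not used here.

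The other formins that rose were expressed in dry seeds. Formin homologue 4 (Zm00001d017983) had 2394, 3059 and 1529 counts in *ereb92*_6h, against 226, 218 and 201 in *ereb92*_0h, a log2 fold change of 3.43 (SE 0.280, edgeR adjusted p = 0.000646). Formin-like protein 1 (Zm00001d042506) had 474, 320 and 315 counts in *ereb92*_6h, against 51, 69 and 79 in *ereb92*_0h (log2 fold change 2.48, SE 0.337, edgeR adjusted p = 0.00391). Formin-like protein 5 (Zm00001d015326) had 202, 185 and 129 counts in *ereb92*_6h, against 50, 15 and 55 in *ereb92*_0h (log2 fold change 2.16, SE 0.467, edgeR adjusted p = 0.0309), and passed the threshold in 1 of the 6 fits that leave out 1 library. The other 5 formins passed it in all 6 such fits. The 4 formins with the highest mean FPKM over the libraries, a mean set mostly by *ereb92*_6h, made up 89.4% to 92.7% of the summed formin FPKM in *ereb92*_6h and 14.9% to 29.0% in *ereb92*_0h, and 24.0%, 26.9% and 63.7% in KN5585_6h and 8.52% to 13.7% in KN5585_0h. The choice of these genes favours a high share in *ereb92*_6h, so the shares are a description.

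The same formins were read in the wild type, in KN5585_6h vs KN5585_0h. No cytoskeleton gene was called there: 0 of 226 tested were higher (background 0.00449%) and 0 were lower (background 0%) by edgeR's quasi-likelihood test, with 5 higher and 1 lower at an unadjusted p under 0.05 (background 1.03% and 1.23%), and 1 higher and 0 lower by DESeq2's Wald test. Of the 5 higher, 3 were formins that also rose in *ereb92*. Zm00001d013163 had 134, 26 and 301 counts in KN5585_6h, against 5, 12 and 9 in KN5585_0h (log2 fold change 4.21, SE 0.972, unadjusted p = 0.00252 and adjusted p = 0.999 by edgeR). It was the gene that DESeq2 called. Formin homologue 4 had 192, 482 and 548 counts in KN5585_6h, against 89, 133 and 113 in KN5585_0h (log2 fold change 1.83, SE 0.465, unadjusted p = 0.00438 and adjusted p = 0.999 by edgeR). Zm00001d034221 had 13, 11 and 235 counts in KN5585_6h and 0 in each KN5585_0h library, at least 30.9-fold higher with 3 counts per library as the limit (unadjusted p = 0.0076 and adjusted p = 0.999 by edgeR). Without KN5585_6h replicate 3 this bound was 3.25-fold. For these 3 genes the groups did not overlap, which held for 4.58% of all genes tested in that direction, and the levels in KN5585_6h were highest in replicate 3. Of 22 formins tested in KN5585, 19 had a positive log2 fold change, with a median of 0.51, against a median of -0.02 over all genes. The other higher genes were myosin heavy chain-like Zm00001d044008 (log2 fold change 1.29) and myosin-binding protein 3 (Zm00001d033705, 1.14), and the lower one was putative paramyosin Zm00001d022161 (-1.13). The common dispersion, which measures the spread between replicates, was 0.298 in the KN5585 fit and 0.184 in the *ereb92* fit. In simulated counts with a dispersion of 0.2, edgeR found 67 of 200 genes changed 4-fold. The lack of calls in KN5585 thus does not show that no gene changed.

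At 6 HAI, 0 of 23 formins were called between *ereb92*_6h and KN5585_6h by edgeR's quasi-likelihood test, while DESeq2's Wald test called 4. At an unadjusted p under 0.05, 8 formins were higher, against 8.32% of all genes tested. The groups did not overlap for 8 formins with *ereb92*_6h above and for 3 with it below, against 15.9% and 8.67% of all genes. The counts of the KN5585_6h libraries were uneven. Zm00001d047055 had 1, 4 and 159 counts in KN5585_6h, and Zm00001d034221 had 13, 11 and 235, both highest in replicate 3. The log2 fold change of Zm00001d034221 in *ereb92*_6h vs KN5585_6h was 5.11 (SE 1.30, edgeR adjusted p = 0.121). Without KN5585_6h replicate 3 the gene was called (edgeR adjusted p = 0.0138), and formin homologue 4, Zm00001d013163, Zm00001d047055 and Formin-like protein 1 (Zm00001d042506) were also called (edgeR adjusted p = 0.0388, 0.0266, 0.0142 and 0.0385). *ZmEREB92* itself was highest in that library among the KN5585_6h libraries, with 374 counts, and a relation to the formin levels was not tested.

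Among the actins, 1 of 13 tested rose in *ereb92*_6h vs *ereb92*_0h, and the most abundant actins were not called. The Actin-7 gene Zm00001d032480 (chromosome 1, 228063148 to 228066312) had 776, 781 and 211 counts in *ereb92*_6h, against 10, 9 and 10 in *ereb92*_0h. KN5585_6h had 0, 2 and 0 counts, and KN5585_0h had 2, 23 and 9. It was high in the *ereb92*_6h libraries alone, and no other group overlapped them. Against *ereb92*_0h its log2 fold change reached 5.91 (SE 0.565, edgeR adjusted p = 0.00101). Against KN5585_6h, in a comparison that shares the *ereb92*_6h libraries, the ratio of CPM was 835, with a 95% exact interval of 231 to 6901 for counting error from 2 counts in KN5585_6h (edgeR adjusted p = 0.0197). At 22.9 ± 12.6 FPKM in *ereb92*_6h (SD, n = 3), it remained below the most abundant Actin-7 gene, Zm00001d011087, which had 91.3, 79.7 and 105 FPKM in *ereb92*_6h, against 129, 105 and 125 FPKM in *ereb92*_0h. That gene had a log2 fold change of -0.39 (SE 0.210, edgeR adjusted p = 0.391). Actin-1 (Zm00001d010159) had 57.2 ± 9.65 FPKM in *ereb92*_6h and 75.5 ± 8.38 FPKM in *ereb92*_0h (SD, n = 3), and was not called. Over the 13 actins tested, the median log2 fold change was -0.26.

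Among proteins that bind actin, an actin binding protein family gene and an actin cross-linking gene rose in *ereb92*. The gene Zm00001d044291 had 697, 376 and 546 counts in *ereb92*_6h, against 152, 83 and 142 in *ereb92*_0h (log2 fold change 2.16, SE 0.324, edgeR adjusted p = 0.00631). Zm00001d034494, the most abundant gene of this class, had 783, 1110 and 648 counts in *ereb92*_6h, against 216, 342 and 267 in *ereb92*_0h (log2 fold change 1.59, edgeR adjusted p = 0.0177). It passed the threshold in 2 of the 6 fits that leave out 1 library. Neither gene was called in *ereb92*_6h vs KN5585_6h.

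Classes that turn over, branch or bundle actin filaments had no called gene in *ereb92*_6h vs *ereb92*_0h: 0 of 7 actin-depolymerizing factors, 0 of 4 profilins, 0 of 12 genes of the ARP2/3 complex, which branches filaments, and 0 of 9 villins, with 0 in each class also at an unadjusted p under 0.05 and by DESeq2. The 16 actin-depolymerizing factors summed to 397 ± 17.8 FPKM in *ereb92*_6h, against 491 ± 19.1 in *ereb92*_0h (SD, n = 3), and these sums did not overlap. Actin depolymerizing factor3 had 119 ± 9.24 FPKM in *ereb92*_6h, against 167 ± 20.6 in *ereb92*_0h (log2 fold change -0.50, SE 0.197, edgeR adjusted p = 0.229). Profilin homolog5 (Zm00001d045323), the most abundant profilin by its description (its deposited gene name is that of a B-box zinc finger protein), had 6167, 7972 and 6428 counts in *ereb92*_6h, against 8369, 7030 and 6577 in *ereb92*_0h. These groups overlapped (log2 fold change -0.09).

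Myosins, the motors that move along actin, were not called either: 0 of 11 tested in *ereb92*_6h vs *ereb92*_0h, with 0 also at an unadjusted p under 0.05 and by DESeq2. Myosin2 (Zm00001d018481), the most abundant of them, had 1069, 1202 and 1088 counts in *ereb92*_6h, against 801, 695 and 871 in *ereb92*_0h. The groups did not overlap, and the log2 fold change was 0.52 (SE 0.175, edgeR adjusted p = 0.155). Of the 9 myosin-binding genes tested, 0 were called (0 at an unadjusted p under 0.05 and by DESeq2) and 8 had a positive log2 fold change.

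The 50 genes described as myosin heavy chain-related are named for likeness to the myosin tail, a coiled coil, and the name does not make them motors. Of 32 tested, 5 rose in *ereb92*_6h vs *ereb92*_0h and 0 fell by edgeR (1 lower at an unadjusted p under 0.05, and 1 lower by DESeq2). Zm00001d044008 had 1018, 261 and 529 counts in *ereb92*_6h, against 106, 26 and 60 in *ereb92*_0h and 76, 80 and 38 in KN5585_6h. In KN5585_0h it had 23, 19 and 27. It was higher in *ereb92*_6h than in both other groups it was compared with, with log2 fold changes of 3.34 against *ereb92*_0h (SE 0.609, edgeR adjusted p = 0.0153) and 3.12 against KN5585_6h (SE 0.535, edgeR adjusted p = 0.0459). The second call was lost in each of the 6 fits that leave out 1 library. Zm00001d003492 had 478, 437 and 459 counts in *ereb92*_6h, against 156, 147 and 161 in *ereb92*_0h (log2 fold change 1.58, SE 0.218, edgeR adjusted p = 0.00423), the smallest spread within groups among the called genes of this class. Zm00001d027994 had 97, 11 and 20 counts in *ereb92*_6h and 0 in each *ereb92*_0h library, at least 14.3-fold higher with 3 counts per library as the limit (edgeR adjusted p = 0.0394). Without *ereb92*_6h replicate 1 this bound was 5.13-fold. Zm00001d000402 had a log2 fold change of 2.68 (SE 0.539, edgeR adjusted p = 0.0228). Zm00001d027307 stood at the threshold, with a log2 fold change of 1.13 (SE 0.275, edgeR adjusted p = 0.0496), and its adjusted p was 0.0658 in the fit with a replicate block.

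The most abundant genes of that class had lower counts in *ereb92*_6h. Zm00001d031532, at 208 FPKM over all libraries, had 2960, 4472 and 4152 counts in *ereb92*_6h, against 8752, 6546 and 6972 in *ereb92*_0h. These groups did not overlap, and the gene passed the adjusted p but not the fold change limit (log2 fold change -0.93, SE 0.224, edgeR adjusted p = 0.0481). Zm00001d049764 had 59.2 ± 17.2 FPKM in *ereb92*_6h, against 102 ± 6.28 in *ereb92*_0h and 129 ± 36.3 in KN5585_6h (SD, n = 3), and was not called in either comparison (edgeR adjusted p = 0.112 and 0.165). The class summed to 356 ± 47.9 FPKM in *ereb92*_6h, against 522 ± 6.73 in *ereb92*_0h.

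On the microtubule side, 2 genes of the MAP65 family rose. These proteins bundle antiparallel microtubules in cortical arrays and in the phragmoplast of dividing plant cells. The gene described as 65-kDa microtubule-associated protein 6 (Zm00001d033794, chromosome 1, 273839163 to 273844647) had 946, 881 and 344 counts in *ereb92*_6h, against 68, 70 and 59 in *ereb92*_0h, 8, 42 and 45 in KN5585_6h, and 73, 62 and 33 in KN5585_0h. Microtubule-associated protein 65-5 (Zm00001d038174, chromosome 6, 150536285 to 150541728) had 353, 229 and 218 counts in *ereb92*_6h, against 3, 0 and 7 in *ereb92*_0h, 0, 0 and 3 in KN5585_6h, and 0, 0 and 1 in KN5585_0h. Both were high in the *ereb92*_6h libraries alone. In *ereb92*_6h vs *ereb92*_0h the log2 fold changes were 3.46 for Zm00001d033794 (SE 0.405, edgeR adjusted p = 0.00206) and 6.32 for Zm00001d038174 (SE 0.742, edgeR adjusted p = 0.00207), and both passed in all 6 fits that leave out 1 library. In *ereb92*_6h vs KN5585_6h, the log2 fold change of Zm00001d033794 was 4.26 (SE 0.719, edgeR adjusted p = 0.0441). The ratio of CPM of Zm00001d038174 there was 252, with a 95% exact interval of 85.9 to 1224 for counting error from 3 counts in KN5585_6h (edgeR adjusted p = 0.0242). Both calls against KN5585_6h were lost without *ereb92*_6h replicate 1, without *ereb92*_6h replicate 2 or without KN5585_6h replicate 2.

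A further MAP65 gene described as 65-kDa microtubule-associated protein 6 (Zm00001d020685) had 663, 702 and 543 counts in *ereb92*_6h, against 310, 322 and 406 in *ereb92*_0h. The groups did not overlap, and the gene lay just outside both limits (log2 fold change 0.88, SE 0.216, edgeR adjusted p = 0.0513). 65-kDa microtubule-associated protein 1 (Zm00001d045864), the most abundant gene of the class, had 10.4 ± 4.47 FPKM in *ereb92*_6h, against 18.4 ± 6.49 in *ereb92*_0h (SD, n = 3), with overlapping groups. Of the 7 B-type cyclins, which mark dividing cells, 5 had counts, and they summed to 1.05 to 2.80 CPM in *ereb92*_6h, against 0.232 to 2.66 CPM in *ereb92*_0h, 0 to 0.699 CPM in KN5585_6h and 0 to 0.397 CPM in KN5585_0h. Their part in the MAP65 levels was not tested.

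**Figure D3:**
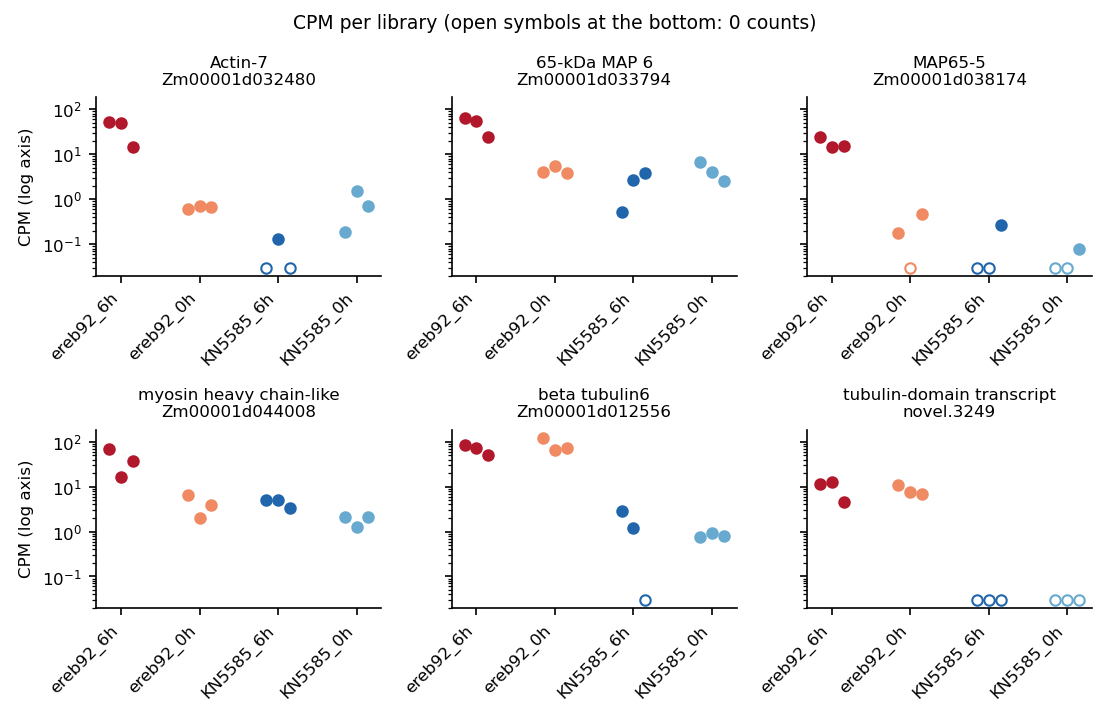
CPM on a log axis (vertical) of 6 genes called in *ereb92*_6h vs KN5585_6h, with 3 libraries in each group (horizontal) and open symbols for libraries at 0 counts. Actin-7, both MAP65 genes and the myosin heavy chain-like gene have their highest points in *ereb92*_6h, while beta tubulin6 and the tubulin-domain transcript are high in both *ereb92* groups and near or at 0 in both KN5585 groups.

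Kinesins, the motors of microtubules, were the largest class, and 0 of 39 tested were called in *ereb92*_6h vs *ereb92*_0h by edgeR (1 higher at an unadjusted p under 0.05, 0 by DESeq2). The median log2 fold change was -0.20, and 22 of the 39 were negative. The 58 kinesin genes summed to 72.8 to 75.4 FPKM in *ereb92*_6h, against 78.3 to 98.5 FPKM in *ereb92*_0h. The kinesin heavy chain isolog Zm00001d004143 was the most abundant, with 9.35 ± 2.47 FPKM in *ereb92*_6h, against 13.0 ± 1.22 in *ereb92*_0h (SD, n = 3). Kinesins were also not called in *ereb92*_6h vs KN5585_6h (0 of 38, with 2 higher at an unadjusted p under 0.05 and 0 by DESeq2).

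Gamma-tubulins and their complexes (0 of 6 tested), the tubulin cofactors and enzymes (0 of 10) and the alpha-tubulins (0 of 7) had no called gene in *ereb92*_6h vs *ereb92*_0h, with 0 in each also at an unadjusted p under 0.05 and by DESeq2. Alpha tubulin3 had 4186, 5225 and 5118 counts in *ereb92*_6h, against 4292, 3741 and 4966 in *ereb92*_0h, and these groups overlapped. Summed over the 9 alpha-tubulins, the level was 207 ± 9.07 FPKM in *ereb92*_6h, against 179 ± 16.0 in *ereb92*_0h, and 166 ± 14.4 in KN5585_6h, against 137 ± 16.4 in KN5585_0h (SD, n = 3).

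In *ereb92*_6h vs KN5585_6h, 6 of 232 cytoskeleton genes tested were higher (2.59%, against 0.815% of all 23066 genes tested) and 0 were lower (background 0.143%). They were Zm00001d032480, Zm00001d038174, Zm00001d033794, Zm00001d044008, beta tubulin6 and a tubulin-domain transcript. All 6 averaged under 1 FPKM in KN5585_6h (highest 0.710). Zm00001d032480, Zm00001d038174, Zm00001d033794, beta tubulin6 and the tubulin-domain transcript could pass the filter on low counts only through *ereb92*_6h. The share of called genes is thus a description. Without adjustment (p under 0.05, same fold limit), 22 were higher and 4 lower, against 8.32% and 2.99% of all genes, and DESeq2's Wald test called 12 and 2. Groups did not overlap for 42 genes with *ereb92*_6h above and for 17 with it below, against 15.9% and 8.67% of all genes tested. The number called moved with single libraries: it was 0 without *ereb92*_6h replicate 1, without *ereb92*_6h replicate 2 or without KN5585_6h replicate 2, 2 without *ereb92*_6h replicate 3, 5 without KN5585_6h replicate 1 and 11 without KN5585_6h replicate 3. The median log2 fold change was -0.08, against -0.00 over all genes. Longer genes had lower values in this comparison: the median was -0.28 over the tenth of all genes with the greatest length, and cytoskeleton genes were long (median 2754 bases, against 1866 over all genes tested). With a correction for gene length the 6 genes also passed (edgeR adjusted p = 0.0107 to 0.0335).

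One beta-tubulin and 1 tubulin-domain transcript differed between the genotypes in dry seeds already. Of 232 cytoskeleton genes tested in *ereb92*_0h vs KN5585_0h, 2 were higher (0.862%, against 0.168% of all 22610 genes) and 0 were lower by edgeR (background 0.0973%, with 5 and 1 by DESeq2). Without adjustment, 8 were higher and 1 lower, against 2.68% and 3.26% of all genes, and the groups did not overlap for 26 genes with *ereb92*_0h above and 8 with it below, against 9.26% and 7.5%. The number higher was 4 without KN5585_0h replicate 1 and 1 without *ereb92*_0h replicate 1 or 2 or KN5585_0h replicate 2 or 3, and the number lower was 1 without *ereb92*_0h replicate 2. Both called genes were tubulin genes, and each could pass the filter on low counts only through *ereb92*_0h. Their share is thus a description. Beta tubulin6 (Zm00001d012556, chromosome 8, 176577453 to 176580718) had 2017, 863 and 1105 counts in *ereb92*_0h, against 8, 14 and 10 in KN5585_0h, and 1227, 1165 and 726 in *ereb92*_6h, against 44, 19 and 0 in KN5585_6h. Every *ereb92* library was thus over 10 times the highest KN5585 library. The log2 fold change was 6.69 in dry seeds (SE 0.353, edgeR adjusted p = 0.00121), and it passed in all 6 fits that leave out 1 library. At 6 HAI it was 5.55 (SE 0.927, edgeR adjusted p = 0.0429). That call was lost without *ereb92*_6h replicate 1, without *ereb92*_6h replicate 2 or without KN5585_6h replicate 2. Between the times within *ereb92* the log2 fold change was -0.31, and the groups overlapped.

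The other gene was a transcript of the deposited table that the B73 annotation does not name and that holds a tubulin GTPase domain (chromosome 3, 92007391 to 92008261). It had 177, 98 and 105 counts in *ereb92*_0h and 167, 199 and 66 in *ereb92*_6h, against 0 counts in each of the 6 KN5585 libraries. It thus passed the filter on low counts only through the *ereb92* libraries. It was at least 35.2-fold higher in dry seeds (edgeR adjusted p = 0.0186, lost in 4 of the 6 fits that leave out 1 library) and at least 43.8-fold higher at 6 HAI (edgeR adjusted p = 0.0279), with 3 counts per library as the limit. The remaining tubulin-domain transcripts were uneven between replicates. The one on chromosome 8 from 135082918 to 135088853 had 0, 1 and 3 counts in *ereb92*_6h and 1, 1 and 3 in *ereb92*_0h, against 244, 0 and 0 in KN5585_6h and 0, 0 and 324 in KN5585_0h, and did not pass the filter. The one on chromosome 1 from 9500340 to 9504905 had 17 to 74 counts in 10 libraries and 0 in KN5585_0h replicates 2 and 3.

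An actin gene also had counts in *ereb92* libraries alone. The Actin-7 gene Zm00001d007792, named after its values were seen, had 71, 30 and 72 counts in *ereb92*_0h, against 0 in each KN5585_0h library, and 105, 59 and 0 in *ereb92*_6h, against 0 in each KN5585_6h library. In dry seeds it was at least 15.9-fold higher and missed the threshold (edgeR adjusted p = 0.0541). The reverse was seen for a transcript with a myosin motor domain (chromosome 3, 152149276 to 152172803). It had 0 counts in each *ereb92*_6h library, against 18, 28 and 44 in KN5585_6h (edgeR adjusted p = 0.0858). In dry seeds it had 0, 0 and 58 counts in *ereb92*_0h, against 43, 20 and 39 in KN5585_0h. Actins and tubulins have near-identical copies, and the sources do not state the use of strand or of reads with several matches, so counts of single copies are uncertain.

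All 12 beta-tubulins tested in dry seeds had a positive log2 fold change in *ereb92*_0h vs KN5585_0h, with a median of 0.93, against -0.01 over all genes tested. Apart from beta tubulin6 they were not called. Beta tubulin5 (Zm00001d040509), named after its values were seen, had 49, 91 and 261 counts in *ereb92*_0h, against 4, 44 and 10 in KN5585_0h (log2 fold change 2.67, SE 0.857, edgeR adjusted p = 0.350). Tubulin beta-4 chain (Zm00001d036626), the most abundant, had 70.2 ± 13.3 FPKM in *ereb92*_0h, against 40.8 ± 11.8 in KN5585_0h (SD, n = 3), and these groups did not overlap. Summed over the 16 genes, the level was 278 to 448 FPKM in *ereb92*_0h, against 116 to 243 FPKM in KN5585_0h, and 240 to 327 FPKM in *ereb92*_6h, against 136 to 237 FPKM in KN5585_6h. Within *ereb92*, 0 of 12 were called between the times (1 lower at an unadjusted p under 0.05 and by DESeq2, Zm00001d013139), with a median of -0.33.

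**Figure D4:**
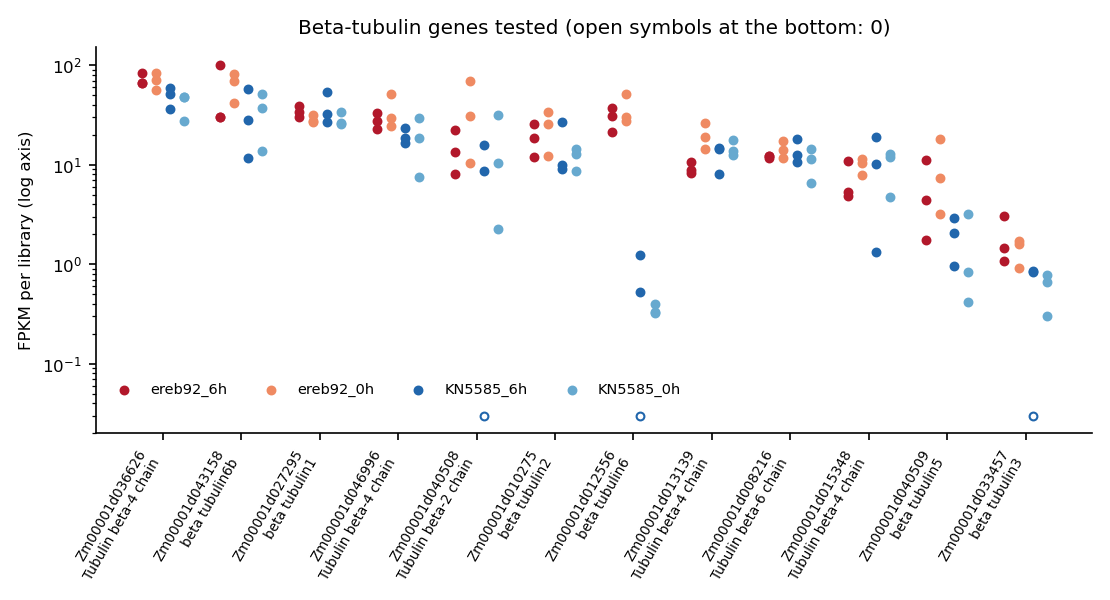
FPKM on a log axis (vertical) of the 12 beta-tubulin genes tested (horizontal, by mean level), with a point for each of the 3 libraries of *ereb92*_6h, *ereb92*_0h, KN5585_6h and KN5585_0h and open symbols for 0. Beta tubulin6 has 29.8 and 36.5 FPKM on average in *ereb92*_6h and *ereb92*_0h, against 0.590 and 0.350 FPKM in KN5585_6h and KN5585_0h, while the points of most other genes overlap between the genotypes.

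An interaction term in a fit of all 12 libraries tested whether imbibition changed a gene differently in *ereb92* and in KN5585. Of 254 cytoskeleton genes tested, 1 had a larger increase in *ereb92* (0.394%, against 0.0313% of all 25567 genes tested) and 0 had a larger increase in KN5585 (background 0%, with 4 and 0 by DESeq2). At an unadjusted p under 0.05 these counts were 11 and 1, against 5.86% and 0.86% of all genes. It was the Actin-7 gene Zm00001d032480, with an interaction of 9.82 on the log2 scale (SE 1.21, edgeR adjusted p = 0.0333). The gene could pass the filter on low counts only through *ereb92*_6h. Its adjusted p was under 0.05 in 3 of the 12 fits that leave out 1 library. No formin was called, so the larger formin increase in *ereb92* was not shown to differ from that in KN5585: the interaction was 2.62 for Formin-like protein 1 (Zm00001d042506, SE 0.537, edgeR adjusted p = 0.121), which DESeq2 called, and 2.89 for Zm00001d013163 (SE 1.31, edgeR adjusted p = 0.637). The number of cytoskeleton genes called was 5 without KN5585_6h replicate 3, and 0 without *ereb92*_6h replicate 1 or 2, any *ereb92*_0h replicate, KN5585_6h replicate 1 or 2, or KN5585_0h replicate 2 or 3.

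Other genes of the cytoskeleton and of vesicle delivery that the words did not cover numbered 158, among them exocyst subunits, which tether secretory vesicles to the plasma membrane, and dynamins, which cut membranes. In *ereb92*_6h vs *ereb92*_0h, 8 of 101 tested rose, which is 7.92%, near the 5.87% of all genes tested. They were 5 exocyst genes, 2 genes described as outer arm dynein light chain 1 and 1 dynamin-related gene. Exocyst subunit exo70 family protein B2 (Zm00001d038447) averaged 87.1 CPM in *ereb92*_6h and 11.5 CPM in *ereb92*_0h, with a log2 fold change of 2.96 (SE 0.321, edgeR adjusted p = 0.00158). The dynein light chain gene Zm00001d030526 averaged 43.8 CPM in *ereb92*_6h and 1.81 CPM in *ereb92*_0h (log2 fold change 4.62, SE 0.541, edgeR adjusted p = 0.00206). These 2 genes were also the ones called in *ereb92*_6h vs KN5585_6h, of 97 tested (2.06%, against 0.815% of all genes tested), where they averaged 10.3 and 5.82 CPM in KN5585_6h. Of 4 katanin, 13 augmin, 2 fimbrin, 4 SCAR/WAVE and 5 TPX2 family genes, none passed edgeR's threshold in *ereb92*_6h vs *ereb92*_0h.

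Genes of a class that lie side by side did not always share a level. Within 100000 bases of each other, 14 pairs of genes of the same class were found (27 genes). The actin-depolymerizing factor genes Zm00001d034643 and Zm00001d034644, 224 bases apart on chromosome 1, averaged 94.4 and 148 FPKM over the libraries. The Actin-7 genes Zm00001d011086 and Zm00001d011087, 4991 bases apart on chromosome 8, averaged 19.6 and 97.9 FPKM. None of the 16 genes that rose in *ereb92* belonged to such a pair.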

How the data were processed

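The authors aligned paired reads with Hisat2 to B73 RefGen_v4 and counted them per gene with featureCounts. They deposited counts and FPKM for the 12 libraries together, and the 20 columns of the authors' own comparisons (DESeq2 log2 fold changes and p-values) beside them were not used, and 0 other columns of per-sample values were left out. The mouse builds in the submitters' processing notes were not used. Libraries were grouped by their labels and held 12771663 to 15383586 counts.

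Counts were tested with edgeR 4.0.16 (quasi-likelihood test, TMM scaling, default filter on low counts, default prior count). R 4.3.3 with limma 3.58.1 and data.table (version 1.17.8) was used. The tests ran on the 6 libraries of a comparison, and on all 12 for the interaction. A prior count of 2 was used only for log2 CPM, in the gene length offsets and the correlations of replicates. All genes that passed the filter were tested together, and a call required an adjusted p (Benjamini-Hochberg) under 0.05 together with a change of 2-fold or more. Each SE of a log2 fold change was derived from the edgeR test. It is the absolute log2 fold change divided by the square root of the F statistic. The scripts were tried on simulated counts for *ereb92*_6h vs *ereb92*_0h, in which 200 genes changed 4-fold. At a dispersion of 0.05, edgeR found 197 of the 200, with 10 false calls. At 0.2 it found 67, with 3 false calls. DESeq2 found 105 there, with 29 false calls. The common dispersion of the fits to the real data was 0.17 to 0.3. Classes with 0 called genes can therefore hold changes of this size, and calls by DESeq2 alone are less certain. P-values weigh a difference against the spread between the 3 replicates of each group. With 1 mutant line they do not cover variation between lines. Alternatives were DESeq2 1.42.0, other scaling, no filter, 1 fit over all groups, offsets for gene length (lowess, span 0.3), the replicate number as a block, and leaving out each library. Same-numbered replicates, numbered by the labels, deviated together in *ereb92*_6h vs *ereb92*_0h (correlations 0.365, 0.251 and 0.18). There the number was taken to pair the samples, but only in the fit with a block. The labels state no pairing, so it was read from these same data and remains an assumption. The main fits held no block, so their calls and p-values ignore any such pairing. A group at 0 was set to 3 counts per library for a bound. The members, gene lists and classes were chosen with earlier results of these data known, and classes were refined with words met in the descriptions. Named genes were the called members (up to 25 in a comparison), the up to 3 most abundant members of each class, the largest change in each direction without overlap, every member of a class with at most 4 tested, and *ZmEREB92*. Others, such as genes near the threshold or called only by an alternative, were chosen after their values were seen.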

Additional observations from a re-analysis of the deposited data

Results flagged for a closer look

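The change from 0 to 6 HAI of the Actin-7 gene Zm00001d032480 differed between *ereb92* and KN5585 by a test of the difference itself, with an interaction of 9.82 on the log2 scale (SE 1.21, edgeR adjusted p = 0.0333). The gene was higher in 3 of 3 *ereb92*_6h libraries than in every *ereb92*_0h library. The fitted size depends on the prior count, since KN5585_6h held 2 counts in all. The adjusted p was 6.28e-09 with DESeq2's Wald test and 0.106 in the fit with a replicate block, and it ran between 0.00495 and 0.145 when 1 library was left out.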

How the results depend on the processing

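The number of cytoskeleton genes that rose in *ereb92*_6h vs *ereb92*_0h (16) was 10 to 15 with 1 library left out. The number that fell there (0) was 2 with DESeq2, 1 with gene length offsets and 0 to 4 with 1 library left out (4 without *ereb92*_6h replicate 3). In *ereb92*_6h vs KN5585_6h the number higher (6) was 10 with no filter, 12 in 1 fit over all groups, 12 with DESeq2, 0 with the replicate block and 0 to 11 with 1 library left out, and the number lower (0) was 1 with no filter and 2 with DESeq2. In KN5585_6h vs KN5585_0h the number higher (0) was 1 with DESeq2. In *ereb92*_0h vs KN5585_0h the number higher (2) was 1 with the replicate block, 5 with DESeq2 and 1 to 4 with 1 library left out (4 without KN5585_0h replicate 1, and 1 without *ereb92*_0h replicate 1 or 2 or KN5585_0h replicate 2 or 3), and the number lower (0) was 1 with DESeq2 and 0 to 1 with 1 library left out. For the interaction the number higher (1) was 2 with no filter, 0 with the replicate block, 4 with DESeq2 and 0 to 5 with 1 library left out. The cause of these shifts was not tested.

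With the replicate block, 16 genes rose in *ereb92*_6h vs *ereb92*_0h, where the numbers were taken as pairing. Of these, 15 were shared with the fit without the block, Zm00001d027307 was lost and the formin Zm00001d045102 was gained (edgeR adjusted p = 0.0345 with the block and 0.123 without it). In the other comparisons the samples shared only a number (correlations -0.0863 to -0.0444 in *ereb92*_6h vs KN5585_6h, -0.221 to 0.188 in KN5585_6h vs KN5585_0h and -0.134 to -0.0778 in *ereb92*_0h vs KN5585_0h). With 3 libraries a group and the spread between them, genes with few counts can be read as bounds only.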
